A study of Mus musculus with 24 samples.

Results

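The genes described here are 44 genes of the cell division cycle, chosen by name from the gene column of the deposited count table. They fall into 10 G1 and G1/S regulators, 12 S phase replication genes and 22 G2/M genes. All 44 of these were found among the 24614 genes of the table, and all 44 passed the filter on low counts that left 11698 genes for testing. The cells were ID8, a cancer line derived from the ovarian surface epithelium of mice, here with Trp53 and Brca2 knocked out in every group, controls included. The lines were 1CF10 and 2CD7, which are 2 clones with a CRISPR knockout of the interferon receptor gene Ifnar1, then EV, which received an empty CRISPR vector, and WT, which was not transfected. Each of the 4 lines was sampled after 3 h with recombinant mouse interferon (IFN) beta at 10000 IU/ml and without treatment, in 3 libraries per group. Per the series' description these are technical replicates treated on 1 date, so every p-value and SD below measures technical spread, and each knockout line is 1 clone.

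Cyclins and their kinases drive cells through the division cycle: D-type cyclins act in G1, cyclin E with CDK2 at the start of S phase, and cyclins A and B with CDK1 in G2 and mitosis. Many genes of the cycle are transcribed in waves. S phase genes are known for sites of E2F factors, which the RB protein holds in check, and G2/M genes for CHR and CCAAT elements, through which the MuvB complexes, FOXM1 and NF-Y act. Type I interferons signal through the receptor of IFNAR1 and IFNAR2 and are known to slow the growth of many cell types.

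Promoter sequences of the members, read from RefSeq (GRCm38.p6), are shown here since the shares of these motifs differ between S phase and G2/M genes. Windows of 300 bases, with 250 before and 50 after the transcription start, were found for 33 of the 44 members and for 8160 tested genes. The motifs searched on either strand were TTTNGCGC for E2F, TTTGAA for CHR and CCAAT, together with the interferon-stimulated response element read as GAAA, any 2 bases and GAAA, the last added after the responses had been seen. The E2F letters stood in 5 of 10 S phase genes with a window (50%) and in 1 of 16 G2/M genes (6.25%), against 3.21% of all tested genes. The CHR letters stood in 12 of 16 G2/M genes (75.0%) and in 2 of 10 S phase genes (20.0%), against 14.1% of all tested genes. CCAAT stood in 15 of 16 G2/M genes (93.8%) and in 7 of 10 S phase genes (70.0%), against 43.7% of all tested genes. The interferon element was found in 1 member, Bub1b, and in 3.71% of all tested genes. The windows below are those of 4 G2/M genes called after IFN beta in a control and of 2 MCM helicase genes that differed between lines. Each runs 5′ to 3′ on the gene's strand, with matches to these motifs in capitals (ATTGG is CCAAT read on the other strand).
Ccnb1, chr13:100786437-100786736, minus strand: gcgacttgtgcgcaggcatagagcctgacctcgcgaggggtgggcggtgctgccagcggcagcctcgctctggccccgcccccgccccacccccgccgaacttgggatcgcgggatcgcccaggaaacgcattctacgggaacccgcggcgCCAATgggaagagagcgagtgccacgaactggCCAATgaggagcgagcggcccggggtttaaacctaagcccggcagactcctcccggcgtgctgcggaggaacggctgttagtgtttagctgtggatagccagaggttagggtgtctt
Cdc20, chr4:118437294-118437593, minus strand: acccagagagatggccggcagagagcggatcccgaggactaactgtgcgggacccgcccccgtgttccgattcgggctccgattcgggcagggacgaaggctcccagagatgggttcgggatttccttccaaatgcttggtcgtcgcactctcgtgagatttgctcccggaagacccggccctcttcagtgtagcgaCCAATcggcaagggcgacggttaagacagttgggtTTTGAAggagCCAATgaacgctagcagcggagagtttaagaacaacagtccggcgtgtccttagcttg
Cenpe, chr3:135212313-135212612, plus strand: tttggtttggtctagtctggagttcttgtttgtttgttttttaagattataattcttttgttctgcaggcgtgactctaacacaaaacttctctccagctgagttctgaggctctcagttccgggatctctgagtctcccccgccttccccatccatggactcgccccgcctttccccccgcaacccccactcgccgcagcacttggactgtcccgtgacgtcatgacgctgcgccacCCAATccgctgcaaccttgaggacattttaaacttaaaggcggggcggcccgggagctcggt
Cenpf, chr1:189688037-189688336, minus strand: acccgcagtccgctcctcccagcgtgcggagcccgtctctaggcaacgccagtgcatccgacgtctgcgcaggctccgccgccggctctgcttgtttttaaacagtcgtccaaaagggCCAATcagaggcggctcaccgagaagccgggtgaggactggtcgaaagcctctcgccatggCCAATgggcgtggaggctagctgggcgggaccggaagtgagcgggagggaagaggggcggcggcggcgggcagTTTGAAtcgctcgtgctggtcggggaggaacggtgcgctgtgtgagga
Mcm2, chr6:88898731-88899030, minus strand: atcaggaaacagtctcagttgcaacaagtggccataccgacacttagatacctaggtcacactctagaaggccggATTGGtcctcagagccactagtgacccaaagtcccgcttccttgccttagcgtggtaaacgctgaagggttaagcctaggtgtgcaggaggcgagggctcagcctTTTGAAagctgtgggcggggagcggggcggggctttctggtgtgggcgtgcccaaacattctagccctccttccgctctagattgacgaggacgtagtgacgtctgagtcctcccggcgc
Mcm5, chr8:75109259-75109558, plus strand: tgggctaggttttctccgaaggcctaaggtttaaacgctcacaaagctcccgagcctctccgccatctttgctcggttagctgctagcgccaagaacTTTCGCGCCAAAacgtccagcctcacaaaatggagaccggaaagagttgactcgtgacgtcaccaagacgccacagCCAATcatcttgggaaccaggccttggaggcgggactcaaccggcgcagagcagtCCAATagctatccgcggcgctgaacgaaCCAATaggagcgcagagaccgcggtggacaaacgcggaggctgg
Cdc20 and Cenpf carry CHR and CCAAT, while the windows of Ccnb1 and Cenpe hold CCAAT alone. In the Mcm5 window the E2F letters lie on both strands and overlap, and the Mcm2 window holds CHR and CCAAT. Of the members called in a response, Ccnd1, Ccnd2 and Ccna2 have no window in the table of promoters.

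The libraries held 1972192 to 3097331 UMIs (unique molecular identifiers, each counting 1 captured molecule), and every member had at least 14 UMIs in every library, the lowest being Ccne1. CPM below are the UMIs of a gene with each library scaled to a total of 1000000, log2 fold changes are given ± SE, and a call means that the quasi-likelihood test of edgeR gave an adjusted p (Benjamini-Hochberg, over all 11698 genes) below 0.05. Ifnar1 averaged 8.9 ± 2.62 CPM in untreated 1CF10, 7.39 ± 2.71 CPM in untreated 2CD7, 11.9 ± 0.993 CPM in untreated EV and 11.5 ± 4.5 CPM in untreated WT (SD, n = 3 each). None of these differences was called (edgeR adjusted p from 0.102 to 0.353 for the clones against the controls), and a tag primed at the poly(A) tail does not check an edit within the gene. Of 9 mesothelial and surface epithelial markers of ID8 cells, among them Krt8, Krt18, Krt19 and Msln, all were in the table. They summed to 2432 to 4098 CPM in each library. Not all of the 9 were high, and 7 passed the filter on low counts. Krt7 reached at most 0.907 CPM, Muc16 2.85 CPM and Upk3b 13.5 CPM in any library. Of 15 leukocyte markers 6 were in the table, without Ptprc and Cd3e, and they summed to 1.01 to 4.54 CPM. Of 10 endothelial markers 6 were in the table, without Cdh5 and Tek, and they summed to 10.3 to 17.8 CPM, mostly Esam. Treated 1CF10 replicate 3 stood apart from its group, its chi-square per gene being 3.82 and 4.89 against the other 2 libraries, where the remaining pairs of replicates gave 1.42 to 2.80.

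Seen as classes, the members had their lowest mean log2(CPM + 1) in treated WT cells (plot of class levels). The mean log2(CPM + 1) of the 22 G2/M genes was 6.72 ± 0.0768 in treated and 6.75 ± 0.0372 in untreated 1CF10, and 6.55 ± 0.0411 in treated and 6.51 ± 0.0276 in untreated 2CD7 (SD, n = 3 each). In EV it was 6.49 ± 0.0246 with IFN beta and 6.63 ± 0.0571 without, and in WT 6.23 ± 0.00872 with IFN beta and 6.42 ± 0.0277 without. All 3 treated libraries of either control therefore lay below the untreated ones of that line, while those of each clone overlapped. For the 12 S phase genes the level was 7.25 ± 0.0553 in treated and 7.22 ± 0.0338 in untreated 1CF10, and 7.15 ± 0.0379 in treated and 7.19 ± 0.0234 in untreated 2CD7. In EV it was 7.16 ± 0.0281 with IFN beta and 7.25 ± 0.0156 without, and in WT 6.94 ± 0.0135 with IFN beta and 7.09 ± 0.0403 without. For the 10 G1 and G1/S regulators the level was 6.37 ± 0.109 in treated and 6.57 ± 0.110 in untreated WT, with 1 treated library inside the untreated range, and it lay between 6.70 and 6.86 in every other group. By summed CPM, the G1 and G1/S class was not lowest in treated WT. Its sum was 1966 ± 95.9 CPM in treated and 1924 ± 54.7 CPM in untreated WT. In EV the sum was 2928 ± 93.7 CPM with IFN beta and 2602 ± 48.7 CPM without. These levels are described without a test. They are scaled by library totals, whereas the fits also use normalization factors (TMM). Those factors were 0.964 to 0.978 in treated and 0.998 to 1.002 in untreated WT, and 0.968 to 0.974 in treated and 0.991 to 1.009 in untreated EV. In the clones they ran from 0.994 to 1.056. A lower factor raises the scaled level, and the part of these factors in the class levels was not tested. The summed mesothelial and epithelial markers also differed between the groups, at 2432 to 2629 CPM in treated and 2548 to 2564 CPM in untreated 1CF10, and 3204 to 3467 CPM in treated and 3332 to 3393 CPM in untreated 2CD7. They stood at 2990 to 3075 CPM in treated and 2624 to 2704 CPM in untreated EV, and at 3849 to 4098 CPM in treated and 3050 to 3281 CPM in untreated WT, and their part in the class levels was not tested. In bulk RNA, a smaller share of cells in a phase and less RNA per cell cannot be told apart.

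**Figure D1:**
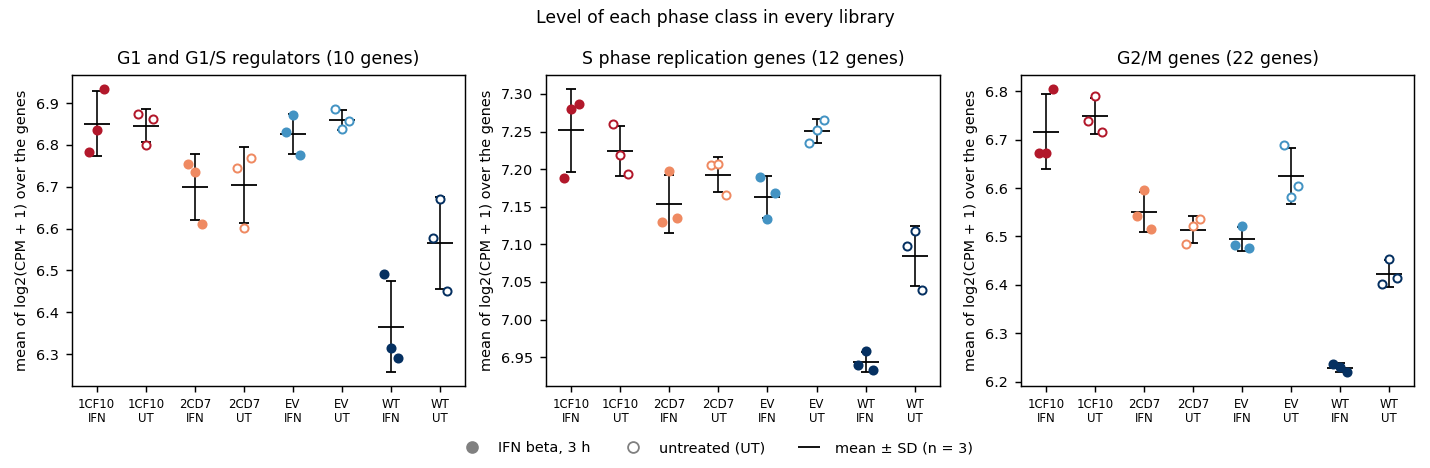
Level of each phase class in every library, as the mean of log2(CPM + 1) over its genes, by line and treatment (IFN, 3 h with IFN beta; UT, untreated). Filled points are treated and open points untreated libraries, and bars give mean ± SD (n = 3); the y axes do not start at 0. The treated WT libraries hold the lowest S phase and G2/M levels, with G2/M means of 6.23 in treated and 6.42 in untreated WT.

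Within 3 h of IFN beta, 9 of the 44 genes were called in WT cells (3 up and 6 down), and 3 in EV cells (2 up and 1 down). Over all tested genes, 5.01% were called higher and 1.84% lower in WT, and 3.99% higher and 1.1% lower in EV. Ccnd2, a D-type cyclin, and Cenpe, a kinetochore motor, rose in both controls, and Cenpf, another kinetochore protein, fell in both. In WT alone, Ccnd3 was also called higher, and Ccnd1, Cdk2, Ccna2, Ccnb1 and Cdc20 lower, although the EV minus WT difference of these responses was not called for any of the 44. By class the counts in WT were 2 higher and 2 lower of 10 G1 and G1/S regulators (median log2 fold change -0.22), none of 12 S phase genes (-0.14), and 1 higher and 4 lower of 22 G2/M genes (-0.16). In EV they were 1 higher of 10 (median -0.05), none of 12 (-0.07), and 1 higher and 1 lower of 22 (-0.10). The median of all tested genes was -0.02 in WT and -0.01 in EV.

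Among the D-type cyclins, which bind CDK4 and CDK6 in G1, Ccnd2 and Ccnd3 rose in WT and Ccnd1 fell. Ccnd2 (chr6:127125162-127152193, minus strand) stood at 867, 769 and 847 CPM in treated WT, against 630, 597 and 611 CPM in untreated WT. In EV it stood at 1300, 1345 and 1290 CPM with IFN beta, against 1019, 962 and 1013 CPM without. The groups of each control do not overlap, and the rise was 0.48 ± 0.07 in WT and 0.44 ± 0.07 in EV (edgeR adjusted p = 5.85e-06 and 2.28e-05). Ccnd1 (chr7:144929931-144939925, minus strand) had 340, 299 and 313 CPM in treated WT, against 463, 452 and 396 CPM in untreated WT, a fall of 0.42 ± 0.07 (log2 fold change -0.42, edgeR adjusted p = 3.55e-05). In EV, Ccnd1 had 529, 623 and 586 CPM with IFN beta, against 618, 580 and 574 CPM without, and these overlap (0.01 ± 0.07, edgeR adjusted p = 0.969). The EV minus WT difference of the Ccnd1 responses was 0.43 ± 0.10 and was not called (edgeR adjusted p = 0.123), while its adjusted p was 0.00624 without the filter on low counts, 0.0404 with a replicate block and 0.0155 in a fit of these groups alone. Ccnd3 averaged 153 ± 7.83 CPM in treated and 125 ± 14.5 CPM in untreated WT (0.35 ± 0.09, edgeR adjusted p = 0.00625), but was not called without untreated WT replicate 3 (adjusted p = 0.106). In EV, Ccnd3 averaged 143 ± 2.79 CPM with IFN beta and 124 ± 3.26 CPM without (0.26 ± 0.09, edgeR adjusted p = 0.105).

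Cdk2, the kinase partner of cyclins E and A (chr10:128697939-128705031, minus strand), had 21.7, 16.3 and 16.7 CPM in treated WT, against 26.4, 31.9 and 35.4 CPM in untreated WT. Its groups do not overlap, and its log2 fold change of -0.75 ± 0.17 was the largest fall among the 44 in WT (edgeR adjusted p = 0.00127). In EV it had 25.7, 25.5 and 21.4 CPM with IFN beta, against 28.5, 28.0 and 35.0 CPM without (-0.29 ± 0.16, edgeR adjusted p = 0.444). The cyclin E genes Ccne1 and Ccne2, the CDK2 phosphatase gene Cdc25a and the transcription factor gene E2f1 were not called in either control, with values in WT of -0.51, -0.38, -0.35 and 0.08.

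None of the 12 S phase genes, which encode the factors that license and unwind replication origins, the sliding clamp and thymidylate synthase, was called in any response (edgeR, with 0 at an unadjusted p below 0.05 in 1CF10, 0 in 2CD7, 3 in EV and 3 in WT). Of these, 10 had a negative value in WT and 9 in EV. The lowest in WT was Cdc6, which helps load the MCM helicase, with 36.5, 37.5 and 37.9 CPM in treated WT, against 50.1, 49.7 and 48.1 CPM in untreated WT. Those libraries do not overlap, yet its log2 fold change of -0.36 ± 0.13 was not called (edgeR adjusted p = 0.0807). Pcna, the clamp that holds DNA polymerase on its template, was nearly level, with 450, 493 and 499 CPM in treated WT, against 524, 478 and 500 CPM in untreated WT (-0.02 ± 0.07, edgeR adjusted p = 0.951). In EV, Pcna had 476, 469 and 454 CPM with IFN beta, against 479, 535 and 473 CPM without (-0.05 ± 0.07, edgeR adjusted p = 0.835).

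Of the G2/M genes called after IFN beta, Cenpe rose and the others fell. Cenpe (chr3:135212537-135273611, plus strand), the kinesin that moves chromosomes to the spindle equator, had 225, 196 and 193 CPM in treated WT, against 101, 135 and 136 CPM in untreated WT. In EV it had 185, 213 and 240 CPM with IFN beta, against 158, 136 and 128 CPM without. The groups of each control are apart, and the log2 fold change was 0.76 ± 0.13 in WT and 0.64 ± 0.13 in EV (edgeR adjusted p = 0.000182 and 0.00144). Cenpf (chr1:189640606-189688086, minus strand) moved the other way, with 120, 124 and 118 CPM in treated WT, against 173, 137 and 151 CPM in untreated WT. In EV it had 146, 146 and 148 CPM with IFN beta, against 206, 189 and 183 CPM without. Again neither pair of groups overlaps, and the log2 fold change was -0.30 ± 0.08 in WT and -0.35 ± 0.08 in EV (edgeR adjusted p = 0.00997 and 0.00145). The call in WT was lost without treated WT replicate 1 or 3 or untreated WT replicate 1, with an adjusted p of up to 0.246.

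Ccnb1, the cyclin that activates CDK1 at the entry into mitosis (chr13:100778650-100786570, minus strand), had 69.5, 84.5 and 84.3 CPM in treated WT, against 109, 108 and 104 CPM in untreated WT. In EV it had 105, 111 and 104 CPM with IFN beta, against 124, 109 and 126 CPM without. Treated and untreated WT are apart and the EV groups overlap, with log2 fold changes of -0.38 ± 0.09 in WT and -0.12 ± 0.09 in EV (edgeR adjusted p = 0.00401 and 0.605). Cdc20, an activator of the anaphase-promoting complex, averaged 82.9 ± 2.39 CPM in treated and 111 ± 4.11 CPM in untreated WT (-0.38 ± 0.10, edgeR adjusted p = 0.00635). Ccna2, the cyclin of S phase and G2, averaged 70.9 ± 1.72 CPM in treated and 94.8 ± 8.10 CPM in untreated WT (-0.37 ± 0.10, edgeR adjusted p = 0.0126). Without treated WT replicate 1, none of Ccnb1, Cdc20 and Ccna2 was called (adjusted p up to 0.141), and Ccna2 was also lost without treated WT replicate 2 or untreated WT replicate 1 or 2. Cdk1, the mitotic kinase itself, had 114, 118 and 115 CPM in treated WT, against 132, 132 and 129 CPM in untreated WT, which are apart, but was not called (-0.14 ± 0.08, edgeR adjusted p = 0.452). In EV, Cdk1 had 142, 138 and 140 CPM with IFN beta, against 156, 152 and 148 CPM without (-0.08 ± 0.08, edgeR adjusted p = 0.774), again without overlap. The proliferation marker gene Mki67 had 141, 101 and 147 CPM in treated WT, against 140, 144 and 153 CPM in untreated WT, and 150, 163 and 136 CPM in treated EV, against 212, 200 and 185 CPM in untreated EV. Its libraries overlap in WT and are apart in EV, and neither response was called (-0.13 ± 0.19 and -0.37 ± 0.18, edgeR adjusted p = 0.808 and 0.374).

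**Figure D2:**
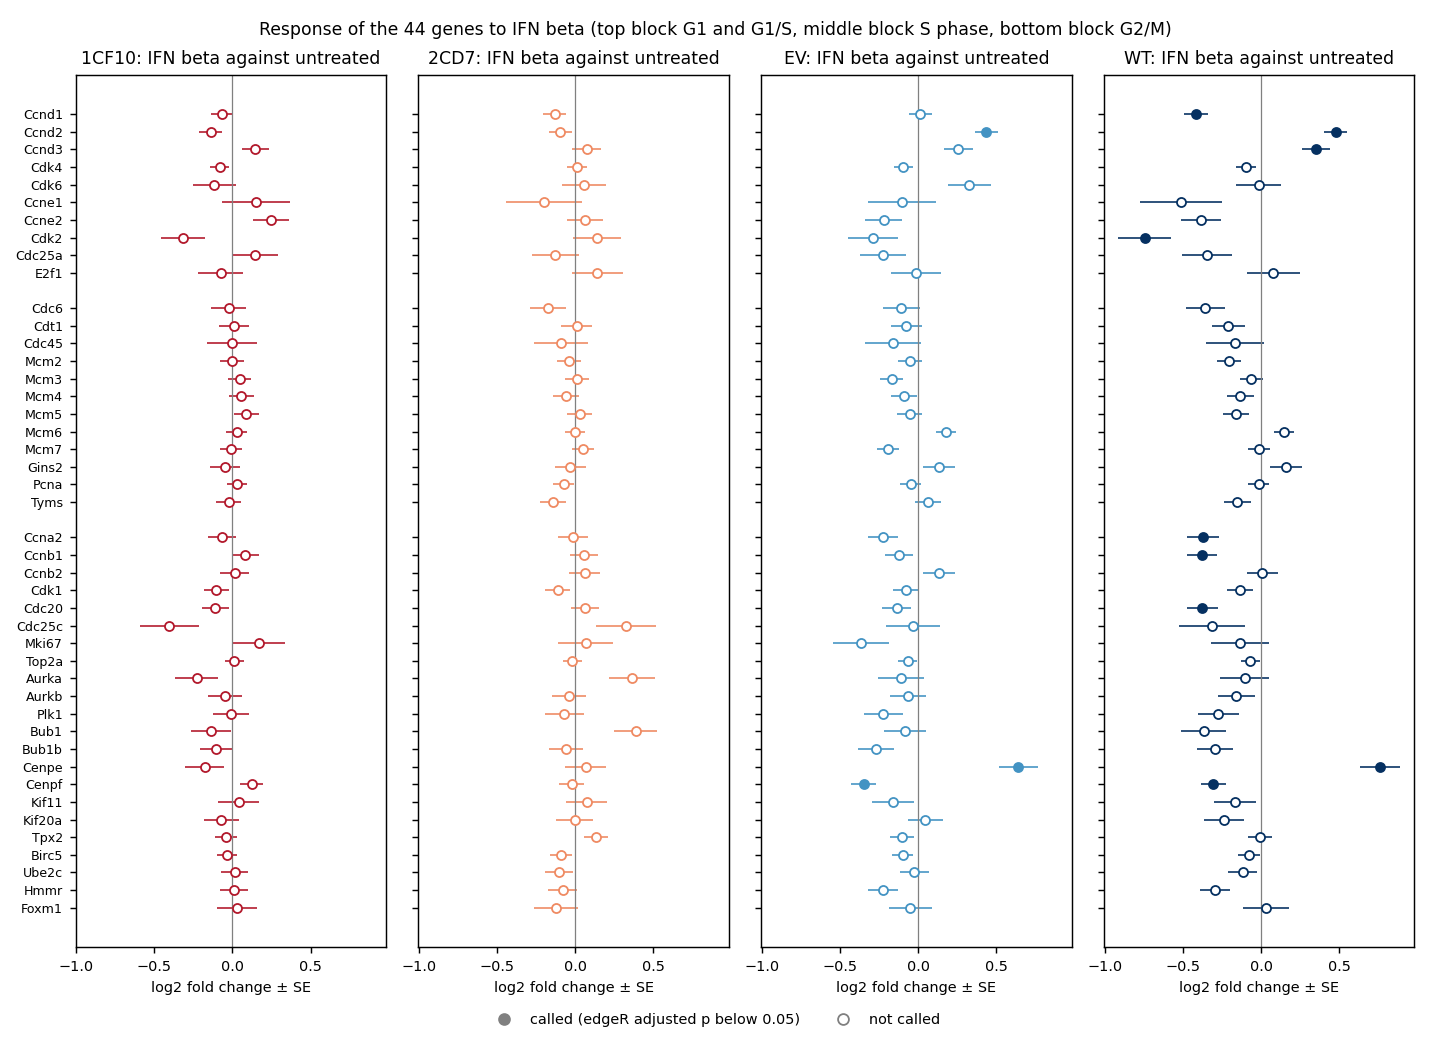
Log2 fold change ± SE of each of the 44 genes after IFN beta in 1CF10, 2CD7, EV and WT, with treated over untreated in each panel. Filled points were called (edgeR adjusted p below 0.05) and open points were not; 9 genes were called in WT, 3 in EV and 0 in either clone. Cenpe and Ccnd2 lie to the right of 0 and Cenpf to the left in both controls.

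In the Ifnar1 knockout clones 0 of the 44 genes were called after IFN beta in 1CF10 or 2CD7, where 0% of all tested genes were called in either direction (edgeR). At an unadjusted p below 0.05 there were 3 members in 1CF10 (Ccne2, Cdk2 and Cdc25c) and 2 in 2CD7 (Aurka and Bub1), beside 284 higher and 201 lower genes in 1CF10 and 305 and 205 in 2CD7. DESeq2 also called 0 members in both clones. Cenpe had 158, 143 and 175 CPM in treated 1CF10, against 167, 202 and 163 CPM in untreated 1CF10. In 2CD7 it had 162, 151 and 119 CPM with IFN beta, against 139, 130 and 143 CPM without. In either clone the libraries with and without IFN beta overlap. Ccnd2 had 640, 634 and 755 CPM in treated 1CF10, against 758, 720 and 731 CPM in untreated 1CF10. In 2CD7 it had 875, 714 and 631 CPM with IFN beta, against 823, 797 and 747 CPM without. These overlap as well, and the log2 fold changes of Ccnd2 were -0.14 ± 0.07 in 1CF10 and -0.10 ± 0.07 in 2CD7 (edgeR adjusted p = 0.998 and 0.997). Ccnd1 had 638, 649 and 691 CPM in treated 1CF10, against 683, 695 and 666 CPM in untreated 1CF10, and 645, 585 and 518 CPM in treated 2CD7, against 704, 612 and 594 CPM in untreated 2CD7. Cdk1 had 159, 166 and 160 CPM in treated 1CF10, against 170, 182 and 164 CPM in untreated 1CF10, and 133, 149 and 132 CPM in treated 2CD7, against 145, 171 and 131 CPM in untreated 2CD7. For both genes the libraries with and without IFN beta overlap in each clone, as they do for Pcna and Mki67. Pcna had 478, 528 and 530 CPM in treated 1CF10, against 483, 499 and 504 CPM in untreated 1CF10, and 477, 519 and 538 CPM in treated 2CD7, against 510, 594 and 507 CPM in untreated 2CD7. Mki67 had 190, 170 and 286 CPM in treated 1CF10, against 197, 185 and 185 CPM in untreated 1CF10, and 180, 201 and 127 CPM in treated 2CD7, against 168, 148 and 170 CPM in untreated 2CD7. The value of 286 CPM is that of treated 1CF10 replicate 3, the library that stood apart.

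The response itself was compared by taking the mean response of the clones minus that of the controls, in which 3 of the 44 were called higher and 2 lower (1.56% and 3.68% of all tested genes). The 2 lower ones were those that rose in the controls, Cenpe at -0.76 ± 0.13 and Ccnd2 at -0.58 ± 0.07 (edgeR adjusted p = 0.000265 and 1.66e-07). The 3 higher ones were Cenpf at 0.38 ± 0.08, Ccne2 at 0.46 ± 0.12 and Ccnb1 at 0.32 ± 0.09 (edgeR adjusted p = 0.000684, 0.00931 and 0.0187). Cenpf had 197, 188 and 195 CPM in treated 1CF10, against 185, 175 and 168 CPM in untreated 1CF10, and 151, 136 and 146 CPM in treated 2CD7, against 135, 151 and 153 CPM in untreated 2CD7. Ccne2, one of the cyclin E genes, was not called in any line alone, with responses of 0.25 ± 0.11 in 1CF10, 0.06 ± 0.12 in 2CD7, -0.22 ± 0.12 in EV and -0.38 ± 0.13 in WT. The Ccne2 call was lost in thinned libraries and without untreated WT replicate 2 (adjusted p up to 0.0536), and the Ccnb1 call in 7 of 32 alternatives (up to 0.0903). Cenpe, Ccnd2 and Cenpf stayed called in all 32. For Ccnd1, Cdk2, Ccna2, Cdc20 and Ccnd3, the other genes called in WT, the clones' response did not differ from that of the controls past the threshold (edgeR adjusted p = 0.549, 0.120, 0.133, 0.163 and 0.278). The EV minus WT and 2CD7 minus 1CF10 differences of the responses called 0 of the 44 (edgeR and DESeq2, with 1 and 4 members at an unadjusted p below 0.05). Over all genes these called 0.0256% higher and 0.0171% lower for EV minus WT (436 and 369 genes at an unadjusted p below 0.05), and 0% for 2CD7 minus 1CF10 (261 and 213 genes).

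**Figure D3:**
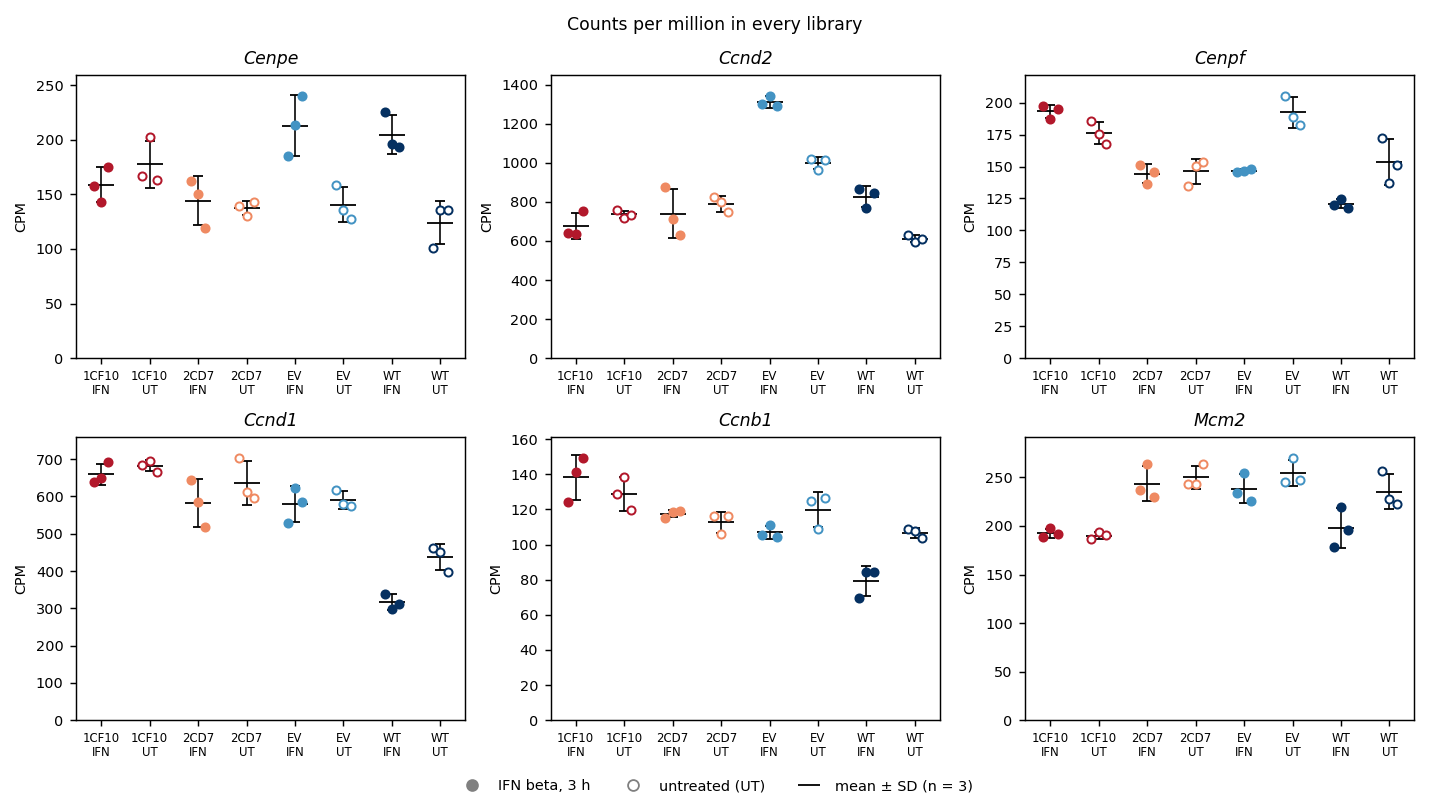
CPM of Cenpe, Ccnd2, Cenpf, Ccnd1, Ccnb1 and Mcm2 in every library by line and treatment (IFN filled, UT open), with bars for mean ± SD (n = 3). Cenpe and Ccnd2 are higher in treated than in untreated libraries of EV and WT, Ccnd1 is lowest in WT and lower there with IFN beta, and Mcm2 is lowest in 1CF10 and in treated WT.

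The lines also differed in these genes without IFN beta, mostly by higher levels in 1CF10 and EV than in WT. Against untreated WT, 16 of the 44 were called higher and 1 lower in 1CF10 (8.19% and 11% of all tested genes), 3 higher and 0 lower in 2CD7 (1.45% and 2.06%), and 14 higher and 1 lower in EV (6.96% and 7.14%). Against untreated EV, 4 were higher and 3 lower in 1CF10 (3.6% and 6.76%), and 0 higher and 3 lower in 2CD7 (4% and 4.86%). The contrasts against WT share the WT libraries and those against EV the EV libraries, so their counts are not independent of one another. None of the 44 was called in the same direction in both clones against both controls.

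Ccnd1 was higher in each of the other untreated lines than in WT. Untreated libraries had 683, 695 and 666 CPM in 1CF10, 704, 612 and 594 CPM in 2CD7, 618, 580 and 574 CPM in EV, and 463, 452 and 396 CPM in WT. The WT libraries lie below all the others, and the differences from WT were 0.61 ± 0.07 for 1CF10, 0.54 ± 0.07 for 2CD7 and 0.44 ± 0.07 for EV (edgeR adjusted p = 2.85e-09, 9.48e-07 and 9.04e-06). Neither clone differed from EV past the threshold (0.18 ± 0.07 and 0.10 ± 0.07, edgeR adjusted p = 0.110 and 0.439). Ccnd2 was highest in EV. It stood at 758, 720 and 731 CPM in untreated 1CF10 and 823, 797 and 747 CPM in untreated 2CD7, against 1019, 962 and 1013 CPM in untreated EV. That is a difference from EV of -0.47 ± 0.07 for 1CF10 and -0.34 ± 0.07 for 2CD7 (edgeR adjusted p = 9.21e-06 and 0.00107). Against WT, with 630, 597 and 611 CPM, all 3 other lines were higher (0.23 ± 0.07 for 1CF10, 0.36 ± 0.07 for 2CD7 and 0.70 ± 0.07 for EV, edgeR adjusted p = 0.0214, 0.00256 and 1.74e-09). The 1CF10 call of Ccnd2 against WT was lost without untreated 1CF10 replicate 1 or untreated WT replicate 2 or 3 (adjusted p up to 0.0632).

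Among the 44, the G2/M genes carried most of the difference of 1CF10 from WT, with 12 of 22 higher and 0 lower (median 0.34). The S phase genes had 1 higher and 1 lower of 12 (median 0.16), and the G1 and G1/S regulators 3 higher of 10 (median 0.19). In longer lists of other genes, described below, the medians were 0.10 for G2/M and 0.19 for S phase. The largest among the 22 G2/M members were Ube2c, the ubiquitin-conjugating enzyme of the anaphase-promoting complex (0.54 ± 0.09), Aurka, the centrosomal mitotic kinase (0.52 ± 0.15), Cenpe (0.48 ± 0.13), Birc5, a subunit of the chromosomal passenger complex (0.48 ± 0.07), and Tpx2, which activates Aurora A on the spindle (0.48 ± 0.07). Plk1, Foxm1, Ccna2, Cdc20, Cdk1, Kif20a and Ccnb1 were called too, at 0.48 to 0.24. Without untreated 1CF10 replicate 2 or untreated WT replicate 2 Aurka was not called (adjusted p up to 0.0688), nor was Cenpe without untreated 1CF10 replicate 2 (0.0514), or Foxm1 without untreated 1CF10 replicate 1 or untreated WT replicate 3 (up to 0.0861). Kif20a and Ccnb1 were each lost in 6 of 14 alternatives (up to 0.170 and 0.238). Mesothelial and epithelial markers moved with this contrast as well, with 1 higher and 5 lower of 7 tested in untreated 1CF10, and their part in it was not tested. Cdk1 had 170, 182 and 164 CPM in untreated 1CF10, against 132, 132 and 129 CPM in untreated WT, which are apart (0.36 ± 0.08, edgeR adjusted p = 0.000645). Mki67 had 197, 185 and 185 CPM in untreated 1CF10, against 140, 144 and 153 CPM in untreated WT, and was not called (0.34 ± 0.18, edgeR adjusted p = 0.214). E2f1, at 39.4, 35.0 and 41.0 CPM in untreated 1CF10 against 30.9, 27.9 and 19.3 CPM in untreated WT, was called at 0.56 ± 0.16 (edgeR adjusted p = 0.00712), but not without untreated WT replicate 3 (adjusted p = 0.169). Against EV, 4 G2/M genes were higher in 1CF10: Ccnb2 (0.45 ± 0.10), Ube2c (0.28 ± 0.09), Cdc20 (0.27 ± 0.09) and Tpx2 (0.24 ± 0.07). Ube2c, Cdc20 and Tpx2 were lost in 4, 7 and 5 of 14 alternatives (adjusted p up to 0.337, 0.300 and 0.139). The count of 7 members called against EV was 4 without untreated 1CF10 replicate 2 and 4 without untreated EV replicate 1.

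Mcm2 was lower in untreated 1CF10 than in either control. This subunit of the MCM2-7 helicase (chr6:88883474-88898780, minus strand) had 186, 194 and 190 CPM in untreated 1CF10, against 245, 270 and 248 CPM in untreated EV and 256, 228 and 222 CPM in untreated WT. No library of 1CF10 reaches either control, and the difference was -0.45 ± 0.08 from EV and -0.34 ± 0.08 from WT (edgeR adjusted p = 1.11e-05 and 0.000769). In 2CD7 it had 243, 243 and 264 CPM, within the range of the controls. Of the other MCM genes, Mcm7 was lower in 1CF10 than in EV (-0.24 ± 0.07, edgeR adjusted p = 0.0123, lost in 3 of 14 alternatives with values up to 0.0802), and stood at 0.03 ± 0.07 against WT. Mcm3, Mcm4, Mcm5 and Mcm6 were not called between 1CF10 and either control.

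Fewer members were called for untreated 2CD7. Against WT its called members were Ccnd1, Ccnd2 and Birc5, the last at 269 ± 20.1 CPM in untreated 2CD7 and 226 ± 6.16 CPM in untreated WT (0.25 ± 0.07, edgeR adjusted p = 0.0251). The Birc5 call was lost without untreated 2CD7 replicate 1 or untreated WT replicate 3 (adjusted p up to 0.212). Against EV they were Ccnd2, Cenpf (-0.40 ± 0.08) and Cdc25c, the phosphatase that activates CDK1 (-0.65 ± 0.18), all lower. Cdc25c was lost in DESeq2 and without untreated 2CD7 replicate 1 or untreated EV replicate 1 (adjusted p up to 0.0807). In a fit of these groups alone 6 members were called against EV.

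**Figure D4:**
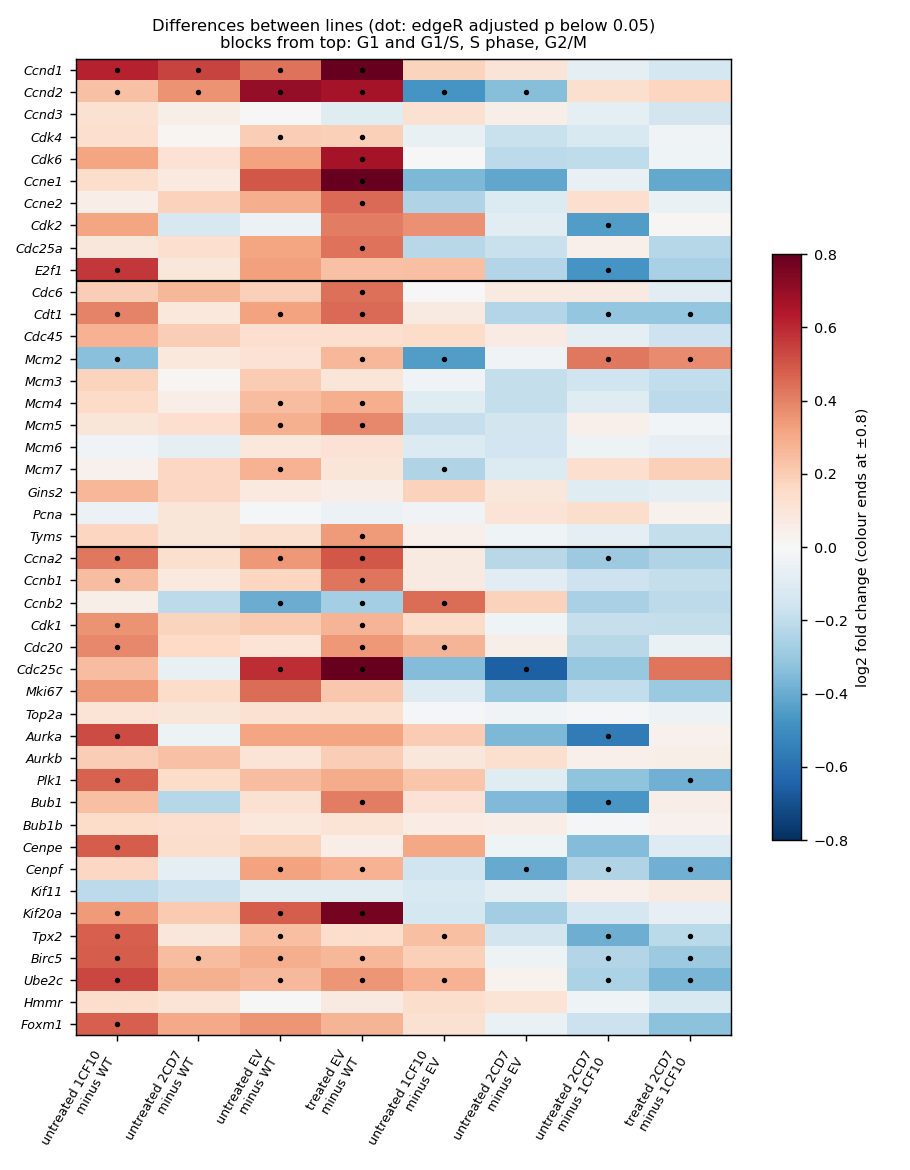
Log2 fold changes of the 44 genes between lines, with the first-named line over the second in each column. Red is higher and blue lower in the line named first, the colour scale ends at ±0.8, dots mark calls (edgeR adjusted p below 0.05), and black lines part the 3 phase classes. The dots number 17 for 1CF10 minus WT, 3 for 2CD7 minus WT, 15 for untreated EV minus WT and 24 for treated EV minus WT.

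EV differed from WT in all 3 classes. The lines were also compared in separate libraries with IFN beta. That treated difference includes any EV minus WT difference of the responses, and these libraries are technical replicates of the same lines. Untreated, 3 of 10 G1 and G1/S regulators, 4 of 12 S phase genes and 7 of 22 G2/M genes were higher in EV, and 1 G2/M gene, Ccnb2, was lower. With IFN beta, 23 of the 44 were higher and 1 lower (9.7% and 9.45% of all tested genes), made up of 7 of 10, 6 of 12 and 10 of 22 higher and Ccnb2 lower. The medians with IFN beta were 0.44, 0.20 and 0.27. Of the 15 untreated and 24 treated calls, 13 were shared in the same direction, which is 86.7% of the untreated and 54.2% of the treated ones, and 43 of the 44 genes had the same sign. The exception was Cdk2, at -0.05 untreated and 0.41 with IFN beta, not called in either. Shared calls and signs were not counted over all tested genes, so no baseline stands beside these shares. The untreated count was 9 without untreated WT replicate 3. Of 7 tested mesothelial and epithelial markers, 1 was higher and 3 were lower in untreated EV than in untreated WT, and 0 were higher and 5 lower with IFN beta, and their part in these differences was not tested.

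The S phase genes called in both sets were Cdt1, Mcm4 and Mcm5. Of these, Mcm4 (0.25 ± 0.08 untreated and 0.29 ± 0.08 with IFN beta) was lost in 7 of 14 alternatives untreated, DESeq2 among them (adjusted p up to 0.198). Its treated call was lost without treated EV replicate 1 or treated WT replicate 2 (up to 0.178). Cdt1, which licenses origins, had 82.7, 94.1 and 88.7 CPM in untreated EV, against 65.7, 78.1 and 69.5 CPM in untreated WT (0.32 ± 0.10, edgeR adjusted p = 0.0234). With IFN beta it had 86.2, 82.6 and 75.6 CPM in EV, against 59.3, 62.6 and 56.2 CPM in WT (0.45 ± 0.10, edgeR adjusted p = 0.000776). Both pairs are apart, and the untreated call was lost in DESeq2 and without untreated EV replicate 2 or 3 or untreated WT replicate 1 or 3 (adjusted p up to 0.107). Mcm5 (chr8:75109569-75128439, plus strand) had 190, 201 and 195 CPM in untreated EV, against 166, 167 and 150 CPM in untreated WT (0.28 ± 0.08, edgeR adjusted p = 0.0101). With IFN beta Mcm5 had 183, 175 and 190 CPM in EV, against 144, 144 and 131 CPM in WT (0.39 ± 0.08, edgeR adjusted p = 0.000239). Every EV library lies above every WT library of the same treatment, and the untreated Mcm5 call was lost without untreated WT replicate 3 (adjusted p = 0.0936).

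The G2/M genes with the largest differences were Cdc25c and Kif20a, a kinesin of cytokinesis. They lie near each other on chromosome 18, Cdc25c at chr18:34732993-34751533 (minus strand) and Kif20a at chr18:34624613-34633277 (plus strand). Whether their differences are separate was not tested. Cdc25c had 28.1, 26.4 and 23.6 CPM in untreated EV, against 13.9, 18.8 and 18.9 CPM in untreated WT (0.59 ± 0.19, edgeR adjusted p = 0.0225). With IFN beta it had 21.6, 30.9 and 20.9 CPM in EV, against 11, 12.5 and 17.1 CPM in WT (0.87 ± 0.19, edgeR adjusted p = 0.000498). Cdc25c held as few as 29 UMIs in a library, and its untreated call was lost in DESeq2 and without untreated EV replicate 1 or 2 or untreated WT replicate 1 (adjusted p up to 0.122). Kif20a had 67.0, 58.4 and 57.8 CPM in untreated EV, against 43.4, 47.7 and 40.9 CPM in untreated WT (0.48 ± 0.12, edgeR adjusted p = 0.00272). With IFN beta it had 70.7, 58.6 and 54.7 CPM in EV, against 33.8, 38.9 and 35.0 CPM in WT (0.76 ± 0.12, edgeR adjusted p = 1.81e-06). Both genes are apart between EV and WT in either treatment. Ccnb2, a B-type cyclin like Ccnb1, ran the other way, with 73.5, 68.2 and 74.4 CPM in untreated EV, against 87.2, 106 and 92.8 CPM in untreated WT (-0.40 ± 0.10, edgeR adjusted p = 0.00325). With IFN beta it had 77.2, 77.1 and 76.0 CPM in EV, against 93.8, 90.8 and 93.2 CPM in WT (-0.27 ± 0.10, edgeR adjusted p = 0.0429). The untreated Ccnb2 call missed the threshold without untreated WT replicate 2 (adjusted p = 0.0506), and the treated one in 9 of 14 alternatives (up to 0.237).

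**Figure D5:**
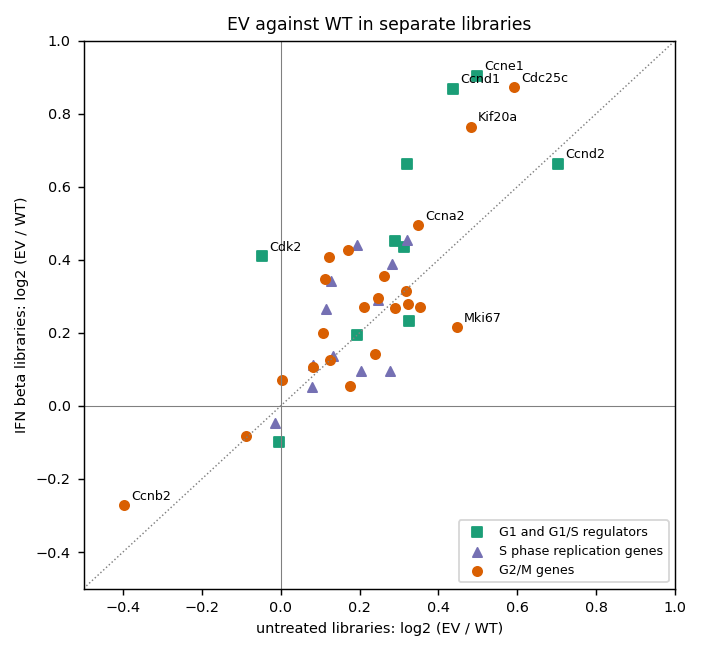
Log2 fold change of EV over WT for the 44 genes, with the untreated libraries on the x axis and the IFN beta libraries on the y axis, which share no library. Squares are G1 and G1/S regulators, triangles S phase genes and circles G2/M genes, and the dotted line marks equal values. In all, 43 of the 44 genes have the same sign on both axes, Cdk2 being the exception, and Ccnb2 lies in the lower left. Shared signs were not counted over all tested genes.

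Between the 2 clones, 1 of the 44 was higher and 10 were lower in untreated 2CD7 than in untreated 1CF10 (7.71% and 5.69% of all tested genes), and 1 was higher and 6 lower with IFN beta (8.76% and 6.41%). Among the 44, the lower genes were mostly of G2/M, 7 of 22 untreated (median -0.23) and 5 of 22 with IFN beta (-0.16). Longer lists of other genes, described below, had closer medians for G2/M and S phase. Of the 44 again, the calls were compared between the treatments. Shared calls numbered 6, which is 54.5% of the untreated and 85.7% of the treated ones, and 35 of the 44 had the same sign. These 6 were Mcm2, higher in 2CD7, and Cdt1, Cenpf, Tpx2, Birc5 and Ube2c, lower. For the clones too, shared calls and signs were not counted over all tested genes. Of the 6, Mcm2 alone kept its call in all 14 alternatives of both treatments. Untreated, Cenpf and Ube2c were each lost in 6 of 14 (adjusted p up to 0.217 and 0.407), DESeq2 included, and Birc5 in 3 (up to 0.143). With IFN beta Tpx2 was lost in 7 of 14, DESeq2 included (up to 0.132). Mcm2 had 243, 243 and 264 CPM in untreated 2CD7, against 186, 194 and 190 CPM in untreated 1CF10, and 237, 264 and 230 CPM in treated 2CD7, against 188, 198 and 192 CPM in treated 1CF10. Both pairs are apart, at 0.42 ± 0.08 and 0.38 ± 0.08 (edgeR adjusted p = 2.83e-05 and 0.000157). Cdt1 had 68.0, 82.6 and 76.1 CPM in untreated 2CD7, against 95.7, 91.1 and 98.5 CPM in untreated 1CF10 (-0.31 ± 0.10, edgeR adjusted p = 0.0239). With IFN beta Cdt1 had 71.0, 84.7 and 71.7 CPM in 2CD7, against 93.8, 90.7 and 106 CPM in 1CF10 (-0.31 ± 0.10, edgeR adjusted p = 0.0221). The groups are again apart, but the Cdt1 call was lost in 5 of 14 alternatives in either treatment (adjusted p up to 0.187 untreated and 0.115 treated), among them DESeq2 and the fit without treated 1CF10 replicate 3.

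Other genes were called in the untreated clones alone. Aurka had 26.2, 27.5 and 26 CPM in untreated 2CD7, against 39.0, 44.7 and 36.2 CPM in untreated 1CF10 (-0.56 ± 0.14, edgeR adjusted p = 0.00355). Bub1, a kinase of the spindle checkpoint, had 26.9, 33.8 and 29.2 CPM in untreated 2CD7, against 40.3, 47.9 and 38.1 CPM in untreated 1CF10 (-0.47 ± 0.13, edgeR adjusted p = 0.0110). Each is apart between the clones without IFN beta. With IFN beta the values overlap, at 35.9, 35.4 and 31.3 CPM for Aurka in 2CD7, against 36.5, 37.0 and 29.6 CPM in 1CF10. For Bub1 they were 37.6, 39.7 and 40.4 CPM in treated 2CD7, against 37.5, 35.8 and 43.0 CPM in treated 1CF10. Cdk2 had 26.5, 27.1 and 33.1 CPM in untreated 2CD7, against 38.1, 40.4 and 41.3 CPM in untreated 1CF10 (-0.45 ± 0.15, edgeR adjusted p = 0.0314). With IFN beta Cdk2 had 38.1, 31.2 and 26.3 CPM in 2CD7, against 30.8, 28.7 and 38.0 CPM in 1CF10 (0.01 ± 0.15, edgeR adjusted p = 0.982). E2f1 had 26.9, 26.8 and 28.0 CPM in untreated 2CD7, against 39.4, 35.0 and 41.0 CPM in untreated 1CF10 (-0.47 ± 0.15, edgeR adjusted p = 0.0290). The change of these clone differences with IFN beta was not called for Aurka, Bub1, Cdk2 or E2f1 (edgeR adjusted p = 1.00 for each). Without untreated 1CF10 replicate 2, Aurka and Bub1 missed the threshold (adjusted p = 0.0568 for Aurka), as did Bub1 without untreated 2CD7 replicate 1 (up to 0.143), and Cdk2 and E2f1 were each lost in 6 of 14 alternatives (up to 0.144 and 0.135). Of 7 tested mesothelial and epithelial markers, 4 were higher in untreated 2CD7 and 5 in treated 2CD7, with 0 lower, and their part in these differences was not tested. The untreated count of 11 was 5 without untreated 1CF10 replicate 2, 5 without untreated 2CD7 replicate 1, 6 and 7 without replicates 2 and 3 of untreated 2CD7, and 5 in DESeq2. The treated count of 7 was also 7 without treated 1CF10 replicate 3, with 5 of the genes shared, and was 4 in DESeq2 and 4 in a fit of these groups alone.

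Of the 44 genes, 11 were called in none of the 15 contrasts, a count not made over all tested genes. They were the S phase genes Cdc45, Mcm3, Mcm6, Gins2 and Pcna and the G2/M genes Mki67, Top2a, Aurkb, Bub1b, Kif11 and Hmmr, with log2 fold changes between -0.37 and 0.45. For Pcna, whose values are given above, the untreated 2CD7 libraries lie just above those of untreated 1CF10 (0.14 ± 0.06, edgeR adjusted p = 0.162), and the other pairs of untreated lines overlap. Mki67 had 197, 185 and 185 CPM in untreated 1CF10, 168, 148 and 170 CPM in untreated 2CD7, 212, 200 and 185 CPM in untreated EV, and 140, 144 and 153 CPM in untreated WT. The EV and WT libraries are apart, at 0.45 ± 0.18 (edgeR adjusted p = 0.116).

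Genes of the same phases outside the 44 were read from longer lists. After IFN beta 0 of 49 other S phase genes rose in WT or EV (5.01% and 3.99% of all tested genes). In WT 2 of the 49 fell, and in EV 2 (1.84% and 1.1% of all tested genes). Those in WT were Rrm2, a subunit of ribonucleotide reductase (-0.50 ± 0.09, edgeR adjusted p = 3.51e-05), and Uhrf1 (-0.45 ± 0.10, edgeR adjusted p = 0.00292), and those in EV were Orc2 (-0.43 ± 0.12) and Hells (-0.20 ± 0.06). Of 62 other G2/M genes, WT had 1 higher and 8 lower and EV 0 higher and 3 lower, and Ncapg2, a condensin II subunit, fell in both (-0.49 ± 0.13 in WT and -0.51 ± 0.13 in EV). Their medians were -0.18 in WT and -0.13 in EV. Over all tested genes, 6.96% were higher and 7.14% lower in untreated EV than in untreated WT, and 9.7% and 9.45% with IFN beta. Of the 49 S phase genes, 14 were higher and 0 lower in untreated EV (13 and 0 with IFN beta). Those with the smallest adjusted p were Hells (0.34 ± 0.06), Rfc1 (0.32 ± 0.07), Gins1 (0.47 ± 0.11) and Orc2 (0.50 ± 0.12). Of the 62 G2/M genes, 5 were higher and 1 lower in untreated EV than in untreated WT, and 12 higher and 1 lower with IFN beta. Between untreated 1CF10 and WT, 14 of the 62 G2/M genes were higher and 1 lower (8.19% and 11% of all tested genes). Of the 49 S phase genes, 7 were higher and 2 lower. The medians were 0.10 for G2/M and 0.19 for S phase, the reverse of the order among the 44. Against untreated EV, 0 of the 49 S phase genes were higher in untreated 1CF10 (3.6% of all tested genes). The 5 lower ones (6.76% of all tested genes) were Pole2, Lig1, Pold1, Hells and Fen1. Of these, Lig1, the DNA ligase that joins Okazaki fragments (-0.67 ± 0.07 against WT and -0.76 ± 0.07 against EV), and Pold1, the catalytic subunit of DNA polymerase delta (-0.38 ± 0.13 and -0.57 ± 0.13), were the 2 called lower against WT as well. Lig1 and Pold1 were higher in 2CD7 than in 1CF10, at 0.75 ± 0.07 and 0.64 ± 0.13 untreated and 0.78 ± 0.07 and 0.59 ± 0.13 with IFN beta. Between the untreated clones, 2 of the 62 G2/M genes were higher and 6 lower in 2CD7 (7.71% and 5.69% of all tested genes, median -0.07). With IFN beta 3 were higher and 5 lower (8.76% and 6.41%, median -0.10). Of the 49 S phase genes, 5 were higher and 0 lower untreated (median -0.05), and 4 higher and 2 lower with IFN beta (-0.09).

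The sources used here do not say whether reads were counted by strand, and 19 of the 44 genes overlap an annotated gene that holds UMIs. Reads of such pairs could not be told apart without strand. For Kif20a, the overlapping Cdc23 on the other strand was also higher in untreated EV than in untreated WT (0.61, edgeR adjusted p = 0.00393). With IFN beta the EV minus WT difference of Cdc23 was not called (0.33, edgeR adjusted p = 0.139). For Ccna2, the overlapping Exosc9 was also higher in untreated 1CF10 than in untreated WT (0.42, edgeR adjusted p = 0.0140). In WT after IFN beta, LTO1 beside Ccnd1 (-0.54), Bysl beside Ccnd3 (-0.09), Exosc9 beside Ccna2 (0.08) and Elovl1 beside Cdc20 (0.00) were not called.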

How the data were processed

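RNA of ID8 cells was read by UMI RNA-seq in 24 libraries, in 8 groups of 3. Per the labels' protocols, libraries were made from 20 ng RNA, with an index of 8 bp, a UMI of 10 bp and a cDNA read of 101 bp. The deposited values are UMI counts per gene, not normalized. Per the submitters' processing notes, cutadapt 3.0, edgeR 3.36.0, limma 3.50.0 and R (3.6.2, 4.1.2) were used with GRCm38. The aligner and the counting by strand are not given in the sources used here.

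From these counts, genes were kept by filterByExpr of edgeR (minimum count 10, minimum total 15), scaled by TMM and fitted with 8 group means over all 24 libraries. Tests were two-sided robust quasi-likelihood tests with Benjamini-Hochberg adjustment over 11698 genes (edgeR 4.0.16, R 4.3.3). The SE is the log2 fold change divided by the square root of F. The fit was tested on simulated data with known changes. CPM used library totals of 1972192 to 3097331 UMIs, and class levels used a pseudocount of 1. Alternatives were DESeq2 1.42.0, limma-voom (limma 3.58.1), DESeq2 size factors, no filter or a minimum of 30, thinned libraries, a replicate block, the compared groups alone and each library left out.

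The 44 members and the gene lists were chosen with earlier results of these data known. Values in every library are given for members called in a response (up to 5 per line by adjusted p), those with the largest called differences between the clones and between EV and WT, and always for Ccnd1, Pcna, Mki67 and Cdk1. Further members were named after their values were seen. Promoter windows are from RefSeq (GRCm38.p6), and gene positions are from GRCm38.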

Additional observations from a re-analysis of the deposited data

Results flagged for a closer look

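The response to IFN beta differed between the clones and the controls for 5 genes, by the test of that difference in edgeR (clones minus controls, 6 libraries per arm and treatment). The difference of the log2 fold changes was -0.58 for Ccnd2, -0.76 for Cenpe, 0.38 for Cenpf, 0.46 for Ccne2 and 0.32 for Ccnb1.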

How the results depend on the processing

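Of 104 calls of members over the 15 contrasts, 53 were kept in every alternative and 0 reversed. DESeq2 called 5 members in untreated 2CD7 minus 1CF10 (edgeR 11) and 4 in treated 2CD7 minus 1CF10 (edgeR 7). In fits of the compared groups alone, 6 were called in the EV response (3 in the fit of all groups), 6 in untreated 2CD7 minus EV (3), 4 in treated 2CD7 minus 1CF10 (7) and 1 in the EV minus WT difference of responses (0). That difference also called 1 without the filter on low counts and 1 with the replicate block, Ccnd1 each time. The causes were not tested.

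Leaving out 1 library gave 6 to 9 calls in the WT response, 3 to 4 in EV, 0 in either clone and 4 to 6 in clones minus controls. Between untreated lines it gave 4 to 6 for 1CF10 minus EV, 3 to 4 for 2CD7 minus EV, 13 to 16 for 1CF10 minus WT, 2 to 3 for 2CD7 minus WT, 9 to 14 for EV minus WT and 5 to 10 for 2CD7 minus 1CF10. With IFN beta it gave 18 to 21 for EV minus WT and 5 to 8 for 2CD7 minus 1CF10.

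The labels give no pairing of libraries by replicate number, and the values here do not settle whether there is one. Same-numbered libraries of different groups had a mean correlation of deviations of 0.00928 (84 pairs, -0.0775 to 0.083), other pairs -0.00464, and 13 of 24 libraries were closest to their own number among the 3 numbers. With the replicate block 10 members were called in WT, 3 in EV, 8 in untreated 1CF10 minus EV, 17 in 1CF10 minus WT, 14 in EV minus WT and 11 in 2CD7 minus 1CF10.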

Other observations

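Among the inhibitors of cyclin-dependent kinases, Cdkn1a (p21) differed most between the lines. It had 32.5, 26.8 and 27.1 CPM in untreated 1CF10, 27.6, 20.1 and 16.2 CPM in untreated 2CD7, 41.8, 50.3 and 39.1 CPM in untreated EV, and 16.6, 13.2 and 9.63 CPM in untreated WT. Every EV library lies above all the others, and 1 library of 2CD7 lies within the WT range. Against WT the log2 difference was 1.12 ± 0.19 for 1CF10, 0.73 ± 0.21 for 2CD7 and 1.76 ± 0.18 for EV (edgeR adjusted p = 8.99e-06, 0.0291 and 3.13e-11). With IFN beta Cdkn1a had 34.3, 25.5 and 26.5 CPM in EV, against 9.88, 11.5 and 9.36 CPM in WT (1.47 ± 0.20, edgeR adjusted p = 4.77e-08). After IFN beta it fell in EV (-0.57 ± 0.16, edgeR adjusted p = 0.0143) and was not called in WT (-0.28 ± 0.24, edgeR adjusted p = 0.635). Of 8 listed inhibitors 5 were in the count table and tested, and Cdkn2a, Cdkn2b and Cdkn1c were not found in its gene column.

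Of 18 tested genes of the pocket proteins, E2F factors and MuvB complexes, 0 were called after IFN beta in any line by edgeR. Over all tested genes, 5.01% were called higher and 1.84% lower in WT, and 3.99% and 1.1% in EV. In either clone 0% were called, and with 18 genes a count of 0 is near these shares. Between treated EV and treated WT, Tfdp1, the partner of E2F factors (0.55 ± 0.12), and the repressor gene E2f8 (0.95 ± 0.24) were higher. Lin37, a MuvB subunit, was lower in untreated 1CF10 (-0.82 ± 0.23) and in untreated EV (-0.71 ± 0.23) than in untreated WT, and these contrasts share the WT libraries.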
